A study of Rattus norvegicus with 12 samples.

Results

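The invariant chain and the genes of the major histocompatibility complex (MHC) class II were examined in the dorsal striatum of rats with a lesion of the dopamine neurons. The set has 6 members: Cd74 (the invariant chain), RT1-Da, RT1-Ba and RT1-Bb (chains of the classical class II molecules of the rat) and RT1-DMa and RT1-DMb (the peptide exchange factor). Members were found as the non-control probes whose gene name in the scanner files is that of a member. This gave 7 probes for 4 of the 6 genes. RT1-DMa carries another name in the files, Hla-dma, and was found through the RefSeq accession of its 1 probe. RT1-DMb had no probe by name or accession and was not analysed here. In all, 8 of the 41012 probes and 5 of the 35623 genes on the array belonged to the set, and 4 of these 5 genes were among the 20469 genes that passed the filter on dim probes. The members were chosen by measured values of these arrays: Cd74 and RT1-Da are in a list that the study made by comparing the DOPA group with the 6-OHDA group, and RT1-Da also in the list for the DOPA/HFS group.

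MHC class II molecules are pairs of an alpha and a beta chain that hold fragments of ingested proteins at the surface of antigen presenting cells, where helper T cells read them. The invariant chain joins the new pair in the endoplasmic reticulum, blocks its groove and guides it to endosomes, where proteases trim it and the DM molecule exchanges the last fragment for a peptide. In the brain, class II molecules are found mainly on activated microglia and on macrophages and dendritic cells of the vessels, meninges and choroid plexus. Transcription of these genes depends on the coactivator Ciita, which interferon gamma induces and which docks on factors bound to the X and Y boxes of their promoters.

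All 12 male rats received 9 µg of 6-OHDA, a toxin that destroys dopamine neurons, in the left substantia nigra pars compacta, and the groups of 3 differed in what followed. The 6-OHDA group had no further treatment and was the reference, so that lesioned tissue was compared with lesioned tissue throughout. The HFS group had high frequency stimulation of the subthalamic nucleus on the lesioned side for 5 days (130 Hz, pulses of 80 µs, 60 µA), through an implanted electrode. Rats of the DOPA group were injected 2 times a day over 19 days with L-DOPA (25 mg/kg) and benserazide (12.5 mg/kg), and those of the DOPA/HFS group had both treatments. Of these 4 groups, by the methods of the study, only those to be stimulated received an electrode, so the surgery and the current cannot be told apart in any comparison of a stimulated with an unstimulated group. Tissue was taken as soon as stimulation ended, and some hours after the last L-DOPA injection. RNA of punches pooled within each rat was hybridised to 1 single-colour array per rat. The strain and age of the rats were not used here.

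Each of the 3 slides held 1 array of every group, at a position that went with the group, so position and treatment cannot be told apart. Between 50.5% and 63.2% of the spots of an array were well above background. The scanner software marked 4175 spots of DOPA/HFS replicate 3 as outliers, against 2 to 25 on the other arrays. Such spots were not used. Markers of striatal projection neurons were high everywhere (mean log2 signal of 7 genes between 13.59 and 14.02). DOPA/HFS replicate 1 stood apart from its label: Trh and Pdyn, genes that respond to L-DOPA, had a mean log2 signal of 11.25 there, next to the 11.26 to 11.45 of the 6-OHDA arrays, against 13.19 and 13.42 on the other DOPA/HFS arrays and 13.3 to 13.48 in the DOPA group. Markers of the choroid plexus, the tissue that secretes cerebrospinal fluid, differed widely: the mean log2 signal of 6 of them was 4.87 to 5.29 in the 6-OHDA group and 7.4 to 10.86 in the HFS group. It was 4.46 to 9.03 on DOPA arrays and 4.63 to 6.27 on DOPA/HFS arrays. For Cd74 and RT1-Da, the DOPA/HFS differences from DOPA and from 6-OHDA are also given without DOPA/HFS replicate 1. All other DOPA/HFS differences are given with this array, apart from ranges over left-out arrays. In the HFS group, all arrays had choroid plexus markers above the range of the 6-OHDA arrays.

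The promoters of 5 members are in the RefSeq table of rat assembly GRCr8, each with 250 bases before and 50 after the gene start. Stretches that hold the Y box and the bases before it are shown for 4 of them, because these genes share the Y box core although their signals differed between groups to very unequal extents. The motifs searched, on both strands and chosen after the sequences had been seen, were GATTGG (a core of the Y box), GCAACNGA (an X box) and TGACGTCA (a cyclic AMP response element, here at the place of the X2 box). Capitals mark matches, and each sequence reads from 5′ to 3′ along the strand of the gene.
RT1-Da: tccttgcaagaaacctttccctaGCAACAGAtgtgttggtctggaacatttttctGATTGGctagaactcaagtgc
RT1-Ba: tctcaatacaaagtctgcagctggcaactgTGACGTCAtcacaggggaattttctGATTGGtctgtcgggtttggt
RT1-Bb: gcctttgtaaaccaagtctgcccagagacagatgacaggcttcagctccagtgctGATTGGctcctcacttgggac
RT1-DMa: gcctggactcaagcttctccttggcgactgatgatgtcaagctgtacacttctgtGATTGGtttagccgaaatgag
They lie on chromosome 20 at chr20:4515310-4515385 (plus strand, RT1-Da), chr20:4576958-4577033 (plus strand, RT1-Ba), chr20:4604160-4604235 (minus strand, RT1-Bb) and chr20:4712380-4712455 (minus strand, RT1-DMa). GATTGG was present once in each of these 4 promoters, starting 50, 44, 62 and 65 bases before the gene start in the same order, and 14.8% of the 33469 promoters in the table hold it. GCAACNGA was found in RT1-Da alone among the members, 82 bases before the start, and in 2.98% of all promoters. It is an exact pattern, so a promoter without a match is not shown to lack an X box. TGACGTCA was found in RT1-Ba alone among the members, and in 1.83% of all promoters. None of the 3 motifs was found in the 300 bases of Cd74. These motifs do not overlap each other, and a match describes letters, not binding.

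Signals are given as log2 of the background-corrected intensity after quantile normalization between arrays. Probes differ in how brightly they hybridise, so levels are compared between groups and not between genes. In bulk tissue, fewer cells of a type and less RNA per cell cannot be told apart.

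Cd74 had the lowest signals in the 6-OHDA group and its highest in the DOPA/HFS group. The log2 signal was 5.99, 5.83 and 6.82 on the 6-OHDA arrays, for replicates 1 to 3. It was 8.27, 6.53 and 7.55 on the HFS arrays. On the DOPA arrays it was 7.27, 7.68 and 7.83. All DOPA arrays were above all 6-OHDA arrays, whereas HFS replicate 2 lay below 6-OHDA replicate 3. On the DOPA/HFS arrays the signal was 8.64, 8.39 and 7.47, again above every 6-OHDA array, and the array with the highest value of all was replicate 1, on which Trh and Pdyn were at the level of untreated rats. The probe was well above background on all 12 arrays. The group means were 6.21 ± 0.53 for 6-OHDA, 7.45 ± 0.88 for HFS, 7.59 ± 0.29 for DOPA and 8.17 ± 0.62 for DOPA/HFS (SD, n = 3 each). In this order, HFS and DOPA were closer together than the spread within either group, and DOPA/HFS overlapped both.

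RT1-Da, the alpha chain of the molecule that corresponds to human HLA-DR, was dim and varied like Cd74. Its brighter probe gave a log2 signal of 5.26, 4.21 and 5.12 on the 6-OHDA arrays, and only replicate 1 was well above background there. All 9 arrays of treated rats were well above background. The signal was 6.97, 5.33 and 5.74 in HFS. It was 6.22, 5.99 and 6.73 in DOPA. In the DOPA/HFS group it was 6.25, 7.01 and 5.92. No array of a treated rat fell within the range of the 6-OHDA arrays, although HFS replicate 2 was above the highest of them by a margin far smaller than the spread within either group. The means were 4.86 ± 0.57, 6.01 ± 0.86, 6.31 ± 0.38 and 6.39 ± 0.56 (SD, n = 3 each) for 6-OHDA, HFS, DOPA and DOPA/HFS, and the 3 treated groups overlapped one another. The other RT1-Da probe was not well above background on 11 of the 12 arrays and reached 5.17 on the remaining one, DOPA/HFS replicate 2, so it gives no fold.

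RT1-Bb, a beta chain of the second classical molecule, was measured by a pair of probes that both passed the filter and that disagreed in size. With the brighter probe the log2 signal was 5.56, 5.79 and 5.40 in 6-OHDA, where 2 of 3 arrays were well above background. It was 5.96, 5.20 and 5.45 in HFS. In DOPA it was 5.88, 5.88 and 6.47. The DOPA arrays were above the 6-OHDA arrays by a narrow margin, and HFS arrays lay on both sides of them. The DOPA/HFS arrays gave 5.95 and 6.04, and the spot of replicate 3 was an outlier and was dropped. Group means were 5.59 ± 0.20, 5.54 ± 0.39 and 6.08 ± 0.34 (SD, n = 3 each) in 6-OHDA, HFS and DOPA, and 6.00 ± 0.06 (SD, n = 2) in DOPA/HFS.

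The dimmer RT1-Bb probe failed to rise well above background in the 6-OHDA group (4.65, 3.76 and 5.47). It was on 2 of 3 HFS arrays, where the signal spread from 2.65 to 6.88. All DOPA arrays (5.28, 6.14 and 6.40) and all DOPA/HFS arrays (5.87, 6.94 and 5.77) were well above background, but DOPA replicate 1 lay below 6-OHDA replicate 3. As the 6-OHDA level is only a bound for this probe, the brighter group was compared with a limit instead. On each 6-OHDA array the limit was the dimmest spot still well above background, or the signal of the probe where that was brighter, and these limits were averaged. This limit is a loose one. On 6-OHDA replicate 3 the probe was not well above background at 5.47, although the dimmest spot that was lay at 5.3. A higher limit would give smaller folds, so "at least" refers, here and below, to this limit only. Against this limit, the DOPA signal was at least 1.82-fold higher. The DOPA/HFS signal was at least 2.16-fold higher. For HFS the mean was below that bound and no fold is given.

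RT1-Ba, the partner chain of RT1-Bb, was detected (well above background) on none of the 12 arrays with either of its probes. The log2 signal lay between 2.56 and 3.39 for one probe and between 2.63 and 2.81 for the other. Below detection, the DOPA arrays (2.84 to 3.39) were above those of HFS (2.66 to 2.74) and DOPA/HFS (2.56 to 2.80) with the first probe, and all groups overlapped with the second. RT1-DMa, a chain of the peptide exchange factor, was the opposite case: it was bright everywhere and hardly varied. Its log2 signal was 10.93, 11.15 and 11.04 in 6-OHDA and 11.08, 11.04 and 11.37 in HFS. In DOPA it was 10.99, 10.96 and 11.03, and in DOPA/HFS 11.24, 10.79 and 11.26. The means were 11.04 ± 0.11, 11.17 ± 0.18, 10.99 ± 0.04 and 11.09 ± 0.27 (SD, n = 3 each), and each pair of groups overlapped except HFS and DOPA, whose nearest arrays were at 11.04 and 11.03.

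**Figure D1:**
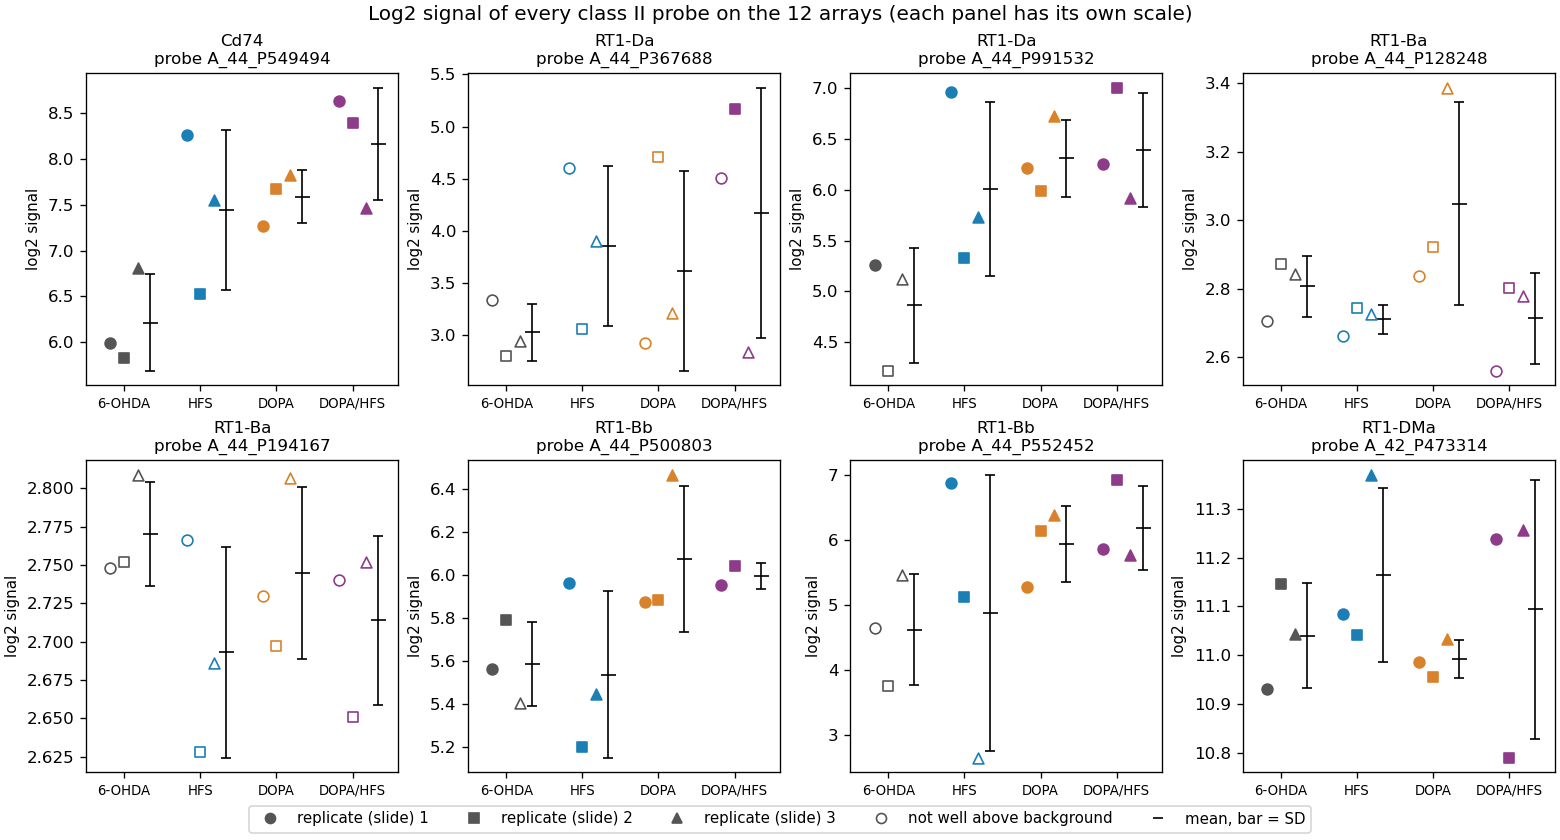
Log2 signal of the 8 probes of the 5 genes, with 1 point per array (shape gives the replicate, which is also the slide), filled where the spot was well above background and open where it was not; bars give the mean and SD of each group, and scales differ between panels. The Cd74 panel rises from 6-OHDA (5.83 to 6.82) to DOPA/HFS (7.47 to 8.64), and the brighter RT1-Da probe shows the same order of means with dimmer spots. Both RT1-Ba panels hold open points only, and RT1-DMa stays between 10.79 and 11.37.

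The question whether stimulation alone went with a change of these genes was put by comparing HFS with 6-OHDA. This comparison was not used to choose the members, but it shares the 6-OHDA arrays with those that were, so that low values on these arrays enter it as well. Cd74 was higher by 1.24 on the log2 scale (standard error 0.44), or 2.36-fold, and RT1-Da by 1.15 (0.44), or 2.21-fold. As 1 of the 3 6-OHDA arrays measured RT1-Da, its fold was also taken against the limit described above, used for the other 2, a step chosen after the values were seen, and was then at least 1.72. RT1-Bb differed by -0.05 (0.23) and RT1-DMa by 0.13 (0.16). After Benjamini-Hochberg adjustment over all genes in limma, 0 of the 4 genes were called at an adjusted p under 0.1 with a fold over 1.2 or under 0.8 (adjusted p = 0.998 for each), and the same limits called 0% of all genes. At an unadjusted p under 0.05 the test found 479 genes (2.34% of those tested, and 1.21% in the higher direction), Cd74 and RT1-Da among them with limma p-values of 0.0174 and 0.0248. Arrays of the groups did not overlap for RT1-Da, and this held in the higher direction for 2.79% of all genes. The median difference was 0.64 over the 4 members and 0.01 over all genes. It falls between Cd74 and RT1-Da on the one side and RT1-Bb and RT1-DMa on the other, and no member was near it. In this direction, 51 of the 20469 genes (0.249%) differed by at least as much as Cd74. Cd74 and RT1-Da were chosen in comparisons with the same 6-OHDA arrays. Their p-values, the lack of overlap, the median and this rank are therefore partly fixed by that choice. RT1-Da also passed the filter mainly through arrays of treated rats, as 1 of the 3 6-OHDA arrays measured it. None of these values is support for an HFS effect.

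The size of these differences rested partly on single arrays. Within slides 1 to 3, Cd74 was higher in HFS than in 6-OHDA by 2.28, 0.69 and 0.73, and RT1-Da by 1.71, 1.11 and 0.62, so the direction was the same on each slide. Without HFS replicate 1 the differences were 0.83 for Cd74 and 0.67 for RT1-Da (adjusted p = 0.878 for both in limma, against a range of 0.549 to 1 over all alternatives). Without HFS replicate 2, Cd74 differed by 1.70. Choroid plexus markers moved with this comparison: all 8 that were tested, of 10 with a probe, were higher in HFS at an unadjusted p under 0.05 in limma. Of the 8, 5 did not overlap with 6-OHDA. Kl and Prlr fell below the filter. A marker dim elsewhere passes the filter more readily when it is bright in HFS, so these counts are partly fixed by the filter. On the HFS arrays the mean log2 signal of 6 of them was 10.86, 7.40 and 10.29, and so it was highest on replicate 1 and lowest on replicate 2, as was Cd74. The part of choroid plexus tissue in the Cd74 and RT1-Da signals of the HFS group was not tested.

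Adding stimulation to L-DOPA was examined by comparing DOPA/HFS with DOPA. Cd74 was higher by 0.58 (standard error 0.44), RT1-Da by 0.08 (0.44) and RT1-DMa by 0.10 (0.16), and RT1-Bb differed by -0.08 (0.26, with 2 arrays in DOPA/HFS), all on the log2 scale. No member was called (adjusted p = 1 for each of the 4 in limma), nor was any other gene (0%), and 775 genes (3.79%) had an unadjusted p under 0.05. On the slides, the Cd74 difference was 1.37, 0.72 and -0.36 and that of RT1-Da 0.03, 1.02 and -0.80, so neither kept its direction on slide 3. Without DOPA/HFS replicate 1, the array that stood apart from its label, the differences were 0.34 for Cd74 and 0.15 for RT1-Da, and without replicate 3 that of Cd74 was 0.92. The sign of the RT1-Da difference turned under 4 of 20 alternatives (the authors' table of log2 values, outlier spots kept, and leaving out replicate 2 of DOPA or of DOPA/HFS), so no direction is given for it.

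The dependence of the stimulation effect on L-DOPA was tested as an interaction, the HFS difference under L-DOPA minus that without it. It was -0.66 for Cd74 (standard error 0.63) and -1.06 for RT1-Da (0.62), against -0.03 for RT1-Bb (0.35) and -0.02 for RT1-DMa (0.23). All 4 had an adjusted p of 1 in limma, where 0% of genes were called and 406 (1.98%) had an unadjusted p under 0.05. The interaction holds the DOPA difference from 6-OHDA with a minus sign, by which Cd74 and RT1-Da were chosen, so their signs here are partly fixed by that choice and are no support for a difference in the HFS effect.

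The comparisons of DOPA and DOPA/HFS with 6-OHDA helped to choose Cd74 and RT1-Da and are given as a description, without a test of the members. In DOPA, Cd74 was higher by 1.38 on the log2 scale (2.60-fold), RT1-Da by 1.45 (2.73-fold) and RT1-Bb by 0.49 (1.40-fold), and RT1-DMa differed by -0.05. The standard errors were 0.44, 0.44, 0.23 and 0.16. Against the limit, with 1 of the 3 6-OHDA arrays measured, RT1-Da was at least 2.12-fold higher. Over the whole array, 1 gene (0.00489%) passed the limits for a call. With the brightest probe of each gene, the arrays did not overlap for Cd74, RT1-Da and RT1-Bb, as for 3.16% of all genes in that direction. With the dimmer RT1-Bb probe they did overlap (5.28 on DOPA replicate 1, 5.47 on 6-OHDA replicate 3). Cd74 was higher in DOPA on each slide, by 1.28, 1.85 and 1.01. The mean of the choroid plexus markers was 4.46, 5.80 and 9.03 on the DOPA arrays and 5.80, 6.27 and 4.63 on the DOPA/HFS arrays, against 4.87 to 5.29 in 6-OHDA. Without DOPA replicate 3, Cd74 differed by 1.26 and RT1-Da by 1.24 between DOPA and 6-OHDA. The part of choroid plexus tissue in these differences was not tested.

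In DOPA/HFS the differences from 6-OHDA were 1.96 for Cd74 (3.88-fold, standard error 0.44), 1.53 for RT1-Da (2.89-fold, 0.44), 0.41 for RT1-Bb (0.26) and 0.06 for RT1-DMa (0.16). Against the limit RT1-Da was at least 2.24-fold higher. Over the whole array 0 genes (0%) passed the limits in limma, and 565 (2.76%) had an unadjusted p under 0.05. With the brightest probes, Cd74, RT1-Da and RT1-Bb again did not overlap, which held for 2.08% of all genes in the higher direction. For RT1-Bb this rests on 2 DOPA/HFS arrays. Without DOPA/HFS replicate 1 it was 1.72 for Cd74 and 1.60 for RT1-Da, so the difference from 6-OHDA did not depend on the array whose Trh and Pdyn signals were low. Against HFS, DOPA/HFS differed by 0.72 for Cd74 (0.44), by 0.38 for RT1-Da (0.44), by 0.46 for RT1-Bb (0.26) and by -0.07 for RT1-DMa (0.16). Over the whole array 0 genes (0%) passed the limits in limma, and 498 (2.43%) had an unadjusted p under 0.05. The arrays of the groups overlapped for each of the 4, whereas 2.56% of all genes were higher without overlap.

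The size of these folds changed with the processing. With the normexp correction the DOPA/HFS difference from 6-OHDA became 1.22 for Cd74 and 0.62 for RT1-Da, and in the authors' table of log2 values it was 1.12 and 0.56. In DOPA the corresponding values were 0.81 and 0.56 with normexp and 0.86 and 0.60 in that table, and in HFS 0.74 and 0.45 with normexp and 0.78 and 0.48 in that table. Every one of these differences kept its direction.

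**Figure D2:**
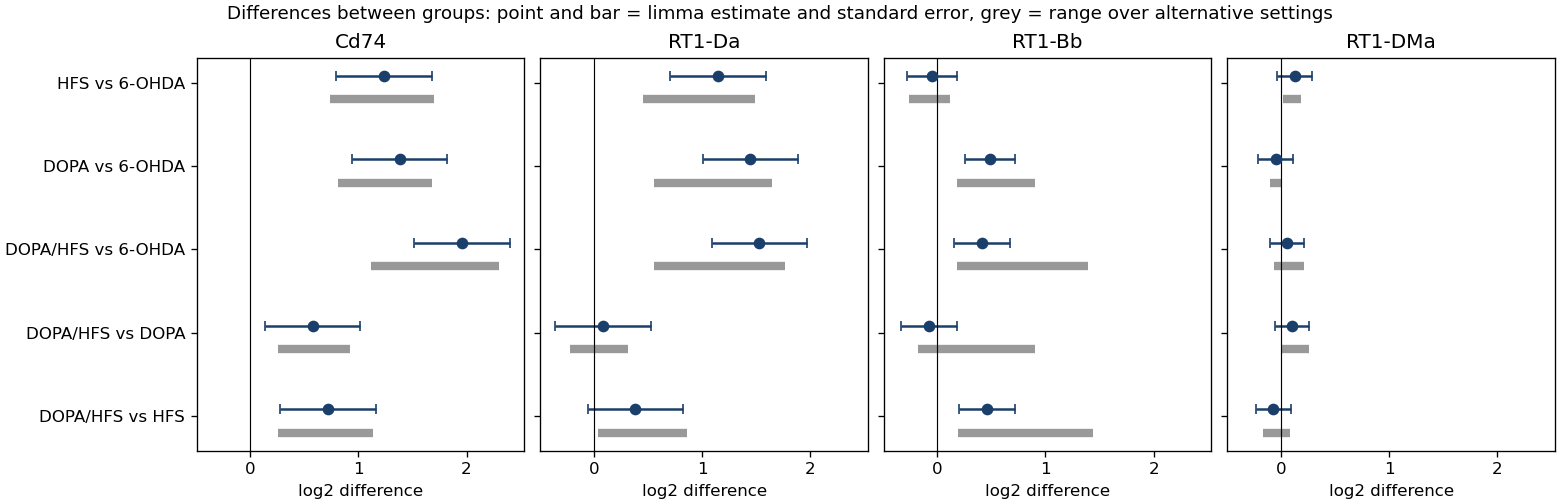
Log2 differences between groups for the 4 genes that passed the filter, with the limma estimate and its standard error (points and bars) and the range over the alternative settings (grey). Cd74 and RT1-Da lie to the right of 0 in the 3 comparisons with 6-OHDA under each alternative, RT1-DMa stays close to 0, and the RT1-Da range for DOPA/HFS against DOPA runs from -0.22 to 0.32.

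Cd74 and RT1-Da varied together from array to array. Over the 12 arrays the Pearson correlation of their log2 signals was 0.88 (Spearman 0.888), without the 2 arrays farthest from the median of Cd74 it was 0.813, and after each group mean was taken off it was 0.73. For RT1-Bb over 11 arrays the Pearson correlation was 0.563 with Cd74 (Spearman 0.745, and 0.705 without the 2 farthest arrays). With RT1-Da it was 0.634 (Spearman 0.827, and 0.846 without the 2 farthest arrays). RT1-DMa did not follow them, with 0.0514 against Cd74 and -0.243 against RT1-Da. These are descriptions, and the arrays share slides, labelling and normalization.

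**Figure D3:**
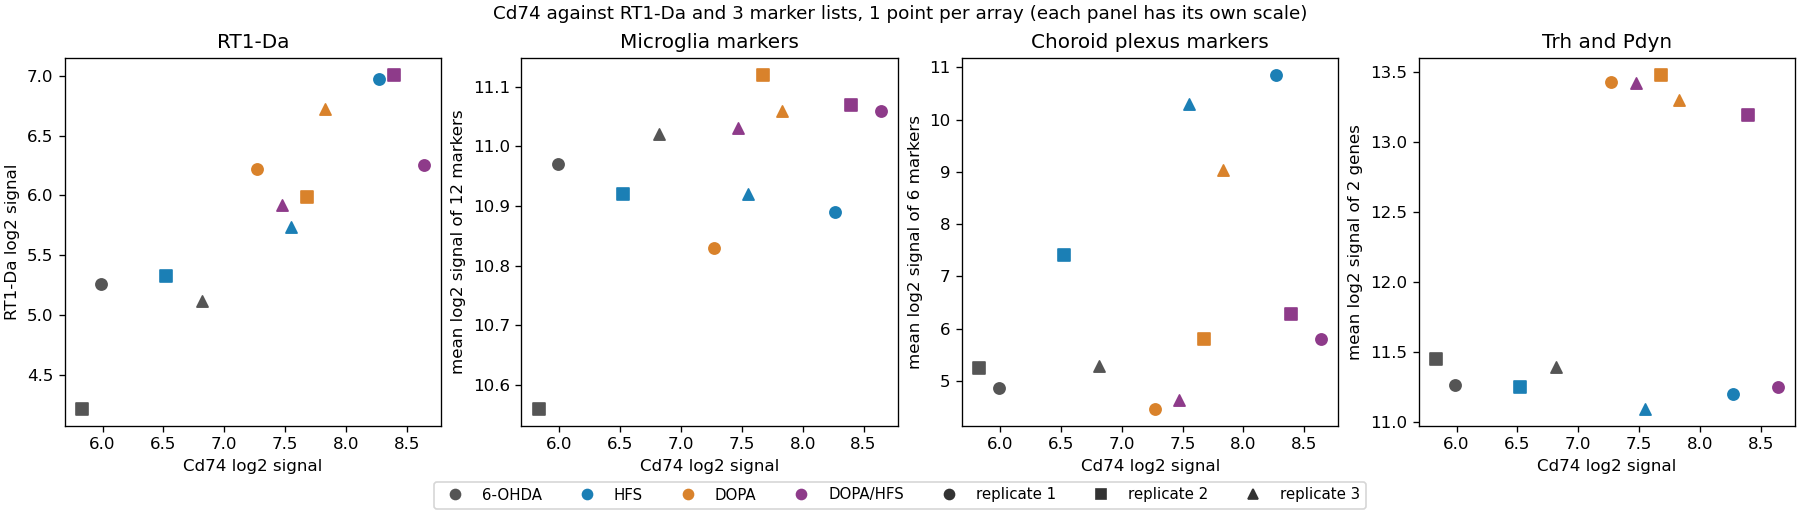
Log2 signal of Cd74 (horizontal axis) against that of RT1-Da and against the mean log2 signal of 12 microglia markers, 6 choroid plexus markers and the pair Trh and Pdyn, with 1 point per array, colour for the group and shape for the replicate. RT1-Da rises with Cd74 (r = 0.88), the microglia markers span only 10.56 to 11.12, and DOPA/HFS replicate 1 combines the highest Cd74 signal with a Trh and Pdyn mean of 11.25.

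Cell types that can carry class II molecules were described through lists of markers. Microglia markers, of which 13 were tested, had a mean log2 signal over 12 genes of 10.56 to 11.02 in 6-OHDA and 10.89 to 10.92 in HFS rats. It was 10.83 to 11.12 after L-DOPA and 11.03 to 11.07 after both treatments. None of the 13 had an unadjusted p under 0.05 in limma in any comparison with 6-OHDA, and their median log2 differences from 6-OHDA were -0.06 for HFS, -0.01 for DOPA and 0.05 for DOPA/HFS. The lowest microglia mean belonged to 6-OHDA replicate 2, the array with the lowest Cd74 and RT1-Da signals. Itgam, which encodes CD11b and is among the 12 genes of this mean, was at 3.58 and not well above background on that array. It was at 6.36 to 8.95 on the 11 others, so Itgam by itself lowered the mean of 6-OHDA replicate 2. Markers of border and perivascular macrophages (4 tested of 8 with a probe) had means of 6.78 to 7.14, 6.57 to 7.09, 6.34 to 6.96 and 6.78 to 7.23 in 6-OHDA, HFS, DOPA and DOPA/HFS. Among them Pf4, the chemokine platelet factor 4, gave 5.83, 5.78 and 6.36 in DOPA and 6.71, 6.49 and 6.63 in DOPA/HFS. The log2 difference was 0.62 (unadjusted p = 0.00579 and adjusted p = 1 in limma). Against 6-OHDA, Pf4 differed by -0.42 in DOPA (unadjusted p = 0.0402 in limma) and by 0.20 in DOPA/HFS. In HFS, Mrc1 (Mrc1_predicted in the files) differed from 6-OHDA by -0.69 (unadjusted p = 0.101 in limma). The differences of Pf4, Clec10a and Folr2 (Folr2_predicted in the files) there were 0.15, -0.02 and 0.10.

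Among markers of monocytes and neutrophils (3 tested of 7 with a probe), 2 were higher in DOPA/HFS than in 6-OHDA at an unadjusted p under 0.05 in limma. Lyz2, a lysozyme of myeloid cells, was at 10.17 to 10.74 in 6-OHDA and at 10.81 to 11.03 in DOPA/HFS, a log2 difference of 0.47 (unadjusted p = 0.0411 and adjusted p = 1 in limma). Plac8 (Plac8_predicted in the files) was at 5.48 to 5.93 in 6-OHDA and at 6.78, 7.61 and 5.88 in DOPA/HFS. It differed by 1.08 from 6-OHDA (unadjusted p = 0.0166) and by 0.93 from DOPA (unadjusted p = 0.033), both with an adjusted p of 1 in limma. The third, Csf3r (Csf3r_predicted in the files), a receptor of neutrophils, differed from 6-OHDA by -0.03 in DOPA/HFS. Of the 7 leptomeningeal markers tested, Igf2 alone was higher in HFS than in 6-OHDA at an unadjusted p under 0.05 (0.96 on the log2 scale, unadjusted p = 0.00444 and adjusted p = 0.998 in limma). The median over the 7 was 0.23. Lum, Ogn (Ogn_predicted in the files), Dcn, Slc6a13, Col1a2 and Col1a1 differed there by 0.60, 0.54, 0.23, 0.02, -0.12 and -0.43.

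Of the dendritic cell markers, 3 of 6 with a probe were tested. Batf3, a transcription factor of conventional dendritic cells, was not detected in 6-OHDA rats (4.90, 4.78 and 4.81) and gave 5.99, 5.43 and 5.57 in DOPA, where replicate 3 was not well above background either. The DOPA mean of Batf3 was 1.47-fold above the limit for 6-OHDA. This mean holds the array that was not well above background, so the fold is not a lower bound. The others, Flt3 and Itgae, differed between DOPA and 6-OHDA by 0.01 and 0.20 on the log2 scale, with overlapping arrays. The B cell markers Cd79b and Ms4a1 were detected on none of the 12 arrays. Of the T cell markers, 2 of 7 with a probe passed, Cd3d and Cd8b, and Cd3g, Cd2, Cd5 and the coreceptor Cd4 were detected on none of the 12. The part of each cell type in the class II signals was not tested.

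The other genes of the class II pathway were taken from lists by role. RT1-Db1, a beta chain that pairs with RT1-Da, was the only other class II gene that passed the filter, as RT1-DOa and RT1-DOb were well above background on 1 array each. Its log2 signal was 5.81, 6.36 and 6.58 in 6-OHDA and 6.94, 6.80 and 6.90 in HFS. In DOPA it was 6.60, 6.51 and 6.43, and in DOPA/HFS 6.96 and 6.78, with an outlier spot on replicate 3. The HFS and DOPA/HFS arrays were thus above all 6-OHDA arrays, and the DOPA arrays were not. It was higher in HFS than in 6-OHDA by 0.63 on the log2 scale (standard error 0.19, unadjusted p = 0.00808 and adjusted p = 0.998 in limma) and in DOPA by 0.26. Its promoter holds GATTGG and, 112 bases before the start, GCAACNGA, as that of RT1-Da does.

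Among the genes that control class II transcription, Ciita, the inducible coactivator, was detected on 0 of the 12 arrays. The 7 that were tested, among them subunits of the factors that bind the X and Y boxes (Rfxank, Nfya, Nfyb and Nfyc), had no unadjusted p under 0.05 in limma in any of the 6 contrasts. Their median log2 differences were 0.18, 0.18 and 0.09 for HFS, DOPA and DOPA/HFS against 6-OHDA. The 10 genes of antigen processing, such as Ctss, the cathepsin that trims the invariant chain, and Ifi30, a thiol reductase of endosomes, likewise had no unadjusted p under 0.05, and their medians were 0.05, 0.08 and 0.06. Ctsb, another cathepsin, had DOPA arrays below the 6-OHDA arrays, with a difference of -0.21 (unadjusted p = 0.291 in limma). Separation of these arrays was a rule for naming genes. Its share of all genes is given here for the higher direction only (3.16%).

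Of the molecules of costimulation and class II turnover, 4 were tested, and Cd80 and Cd86 were well above background on 1 array each. March1 and March8, ubiquitin ligases that remove class II from the surface, differed between HFS and 6-OHDA by -0.25 and 0.00 on the log2 scale (standard errors 0.22 and 0.30). Partners of Cd74 at the cell surface were the ligands Mif and Ddt and the coreceptors Cd44 and Cxcr4, and their HFS differences from 6-OHDA ran from -0.03 to 0.17. In DOPA, Ddt differed from 6-OHDA by -0.20 (unadjusted p = 0.156 in limma), with all DOPA arrays below the 6-OHDA arrays, the rule by which it was named.

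In the interferon gamma axis 9 of 13 genes were tested. Ifng itself was detected on 0 of the 12 arrays. Socs1, an inhibitor of cytokine signalling, was lower in DOPA (4.61, 5.14 and 4.22, each too dim to count as detected) than in 6-OHDA (5.40, 5.77 and 5.16), and the HFS and DOPA/HFS arrays lay between 5.08 and 5.50. The DOPA level is only a bound, and the 6-OHDA and DOPA/HFS means were 1.19-fold and 1.09-fold above the limit for DOPA. Only 2 of 3 arrays were measured in either of these groups, so neither fold is a lower bound. The adjusted p was 1 in limma for DOPA/HFS against DOPA and for the interaction.

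MHC class I molecules, which present peptides made inside the cell, and their peptide supply served as a neighbouring pathway. Of 22 genes tested, 2 had an unadjusted p under 0.05 in limma in HFS against 6-OHDA, both higher, as had 2.34% of all genes in either direction. These were Pdia3, higher by 0.62 (standard error 0.21), and Calr, by 0.49 (0.22), a pair of endoplasmic reticulum proteins that help class I molecules to fold. The median over the 22 genes was 0.00 for HFS, -0.02 for DOPA and 0.12 for DOPA/HFS. Tapbp, the class I loading chaperone, was lower in DOPA (8.34, 8.46 and 8.74) than in 6-OHDA (8.98, 9.01 and 8.80), with an unadjusted p of 0.026 in limma (adjusted p = 1). RT1-Aw2, a class I heavy chain whose probes may also bind its close relatives, differed by 0.40 between DOPA and 6-OHDA (unadjusted p = 0.287 in limma), and Psme2, a subunit of the proteasome activator, by -0.27 (unadjusted p = 0.0673). Both had no overlap of the arrays, the rule by which they were named. The interaction had an unadjusted p under 0.05 in limma for 3 of the 22 genes, Tapbp (0.55), Calr (-0.70) and Pdia3 (-0.92), and for 1.98% of all genes.

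**Figure D4:**
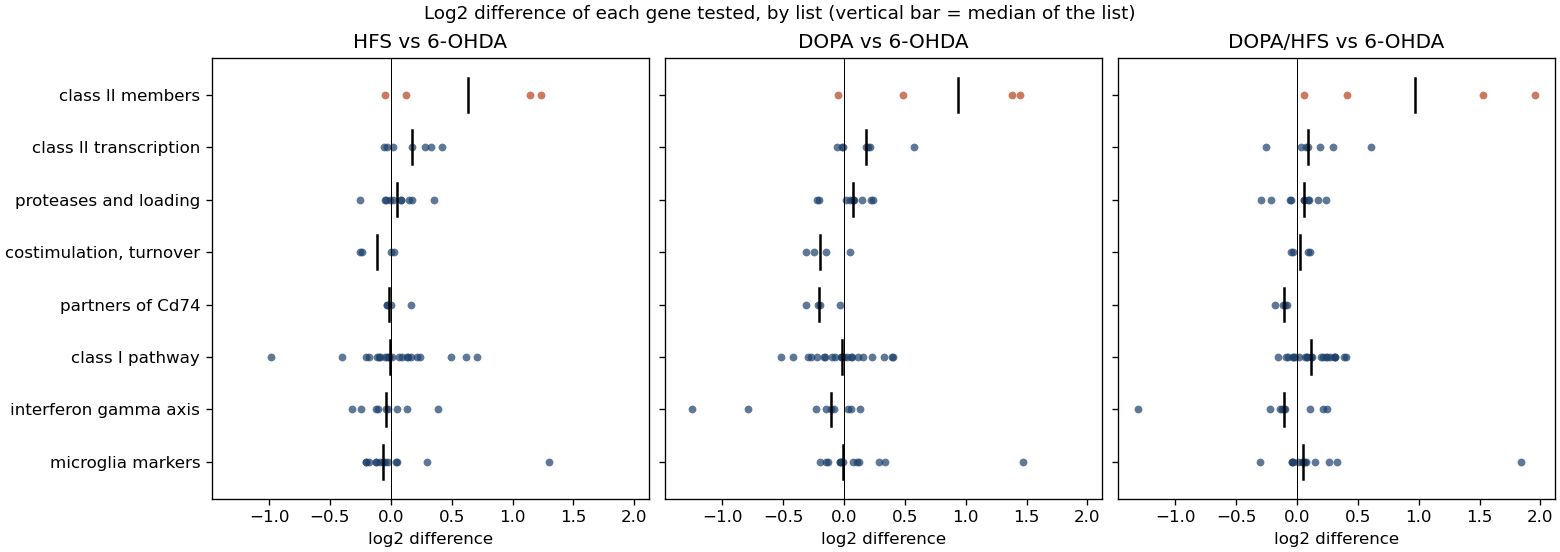
Log2 difference from 6-OHDA of each gene tested, by list (1 point per gene, vertical bar for the median), in HFS, DOPA and DOPA/HFS. Cd74 and RT1-Da are the rightmost class II members in each panel (1.15 to 1.96), the last 2 panels show comparisons by which these genes were chosen, and the medians of the other lists drawn stay between -0.21 and 0.18; the microglia marker far to the right is Itgam.

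The genes whose pattern over the 12 arrays was most like that of the class II members were sought among 18358 genes with a value on each array, by the Pearson correlation with the mean log2 signal of Cd74, RT1-Da and RT1-DMa. Park7 came first at 0.935, and at 0.908 after the group means were taken off. It was followed by a transcript known by its accession only at 0.858, Pias2 at 0.85, Eef1e1 at 0.849, Tsga10 at 0.846, Mdh1b at 0.842, RGD1561490 at 0.839, LOC316130 at 0.837, Dnaja2 at 0.832 and Idh1 at 0.819. Park7 encodes DJ-1, a protein of the response to oxidative stress, and Idh1 an enzyme that makes NADPH. None of the 10 is a gene of antigen presentation by the lists used here. The highest of so many correlations over 12 arrays describe these arrays only.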

How the data were processed

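The authors hybridised Cy3-labelled RNA to Agilent arrays and deposited the scanner output of each array (Agilent Feature Extraction 9.1), with an intensity per spot on a linear scale from which background had been subtracted. A deposited table of the log2 values that the authors had quantile normalized served as an alternative only. The 1639 control spots of 45018 and the outlier spots were left out, log2 intensities were quantile normalized between arrays, spots of a probe were averaged, probes well above background on a share of 0.4 of the arrays were kept, and the brightest probe stood for a gene. Some probes (10735) were named through their accession in the RefSeq table of GRCr8. All 12 arrays were fitted in 4 groups by lmFit and eBayes of limma 3.58.1 (R 4.3.3, jsonlite 2.0.0 and version 1.17.8 of the data.table package), and p-values were adjusted over all 20469 genes. The fit was tested on simulated data. Limma replaced the SAM test of the study's methods. The number of arrays limits the precision, and p-values measure the spread between rats. Members, gene lists and the genes named (pathway genes at an unadjusted p under 0.05 in a tested contrast or without overlap between DOPA and 6-OHDA, the 10 most alike genes, defining cell type markers) were chosen with earlier results of these data known. Replicate numbers are slide numbers. Residuals of arrays with the same number correlated at -0.287 to 0.476 over 18 pairs (median 0.112), so the numbers were not taken to pair the rats, and the slide was fitted as a block as an alternative. Not every listed marker is reported here.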

Additional observations from a re-analysis of the deposited data

How the results depend on the processing

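Of 773 values recomputed under alternative settings, 709 kept their direction and size or their side of the limits, 39 moved and 25 changed sign. No member was called in a tested contrast under any of them, including the replicate block, in which the Cd74 difference between HFS and 6-OHDA stayed 1.24 (adjusted p = 0.98). The median of the members for DOPA against 6-OHDA fell to 0.47 with normexp and 0.39 in the deposited log2 table, and for DOPA/HFS against 6-OHDA to 0.37 in that table. Over all genes, without a filter on dim probes 3 were called for HFS against 6-OHDA, 3 for DOPA/HFS against HFS and 0 for DOPA. The 1 gene called for DOPA became 0 with the mean of all probes or the replicate block, and 2 with only the arrays compared. Leaving out each array gave 0 to 2 calls for HFS, 0 to 13 for DOPA, 0 to 3 for DOPA/HFS against 6-OHDA and 0 to 4 against HFS. The highest counts for the last 3 came without DOPA/HFS replicate 1. Signs turned mainly for values near 0. RT1-Bb in HFS became 0.12 with normexp and 0.1 with the mean of all probes, and ran from -0.26 to 0.12 with single arrays left out. RT1-Bb in DOPA/HFS against DOPA became 0.11 with normexp, 0 in the deposited table, 0.05 with the mean of probes and 0.9 with outlier spots kept, which restored the dropped spot of replicate 3, and ran from -0.18 to 0.12. RT1-Da there became -0.04 in the deposited table and -0.12 with outlier spots kept (range -0.22 to 0.32, below 0 without replicate 2 of DOPA or of DOPA/HFS), and RT1-DMa 0 with outlier spots kept. The RT1-DMa interaction became 0.01 with scaling to the 75th percentile and 0.02 with normexp (range -0.1 to 0.13). That of RT1-Bb became 0.01 in the deposited table and 0.95 with outlier spots kept (range -0.2 to 0.18). Other causes were not tested. RT1-Ba was measured on no array, and RT1-Da and RT1-Bb were close to background in the 6-OHDA group.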
